A study of Rattus norvegicus with 8 samples.

Results

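The blood-spinal cord barrier was examined through 10 genes of its endothelial cells, measured in lumbar segments L6S1 of rats with and without chronic stress: Cldn5, Ocln, Cdh5, Pecam1, Tek, Flt1, Kdr, Slc2a1, Abcb1a and Vwf. The genes were taken by name from the gene column of the array files, with control spots left out. All 10 had a probe, and 12 of the 30367 probes on the array measured them, 3 for Vwf and 1 for each of the other 9 genes. All 12 probes were well above background on all 8 arrays and were tested, so no member was lost to the filter on dim probes.

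The animals were male Wistar rats, 12 weeks old, in 2 groups of 4. Rats of the stress group underwent chronic water avoidance (WA) stress, in which each rat sat for 1 h on a small platform surrounded by water, once a day for 10 days, and the tissue was taken 24 h after the last session. Control rats were handled and did not undergo WA stress, and the labels name no other treatment or genetic change in either group. The cord was flushed out of the spine, the meninges were stripped off and the segments dissected. No washing out of the blood before dissection is described, so the tissue could hold blood. RNA of each rat was measured on 1 Agilent one-colour array, in which the brightness of a spot stands for the amount of RNA. Values below are log2 signals after subtraction of the log2 75th percentile of each array, so that a difference of 1 is a factor of 2. Probes differ in how brightly they answer to the same amount of RNA, so no order was set among the levels of different genes.

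Endothelial cells of the brain and spinal cord are sealed to each other by tight junctions and lack the pores of other capillaries, so that nutrients must cross through transporters and many drugs are pumped back into the blood. Claudin 5 and occludin form the tight junctions, VE-cadherin and PECAM-1 hold the cells together beneath them, and the receptors of angiopoietins and of vascular endothelial growth factor (VEGF) set growth, survival and permeability. Pericytes, the basement membrane and astrocyte endfeet surround the vessel, and Wnt signals from the neural tissue maintain the barrier.

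Some of the probes are shown because their place on the transcript bears on the values below. The files place each by its offset from the first base of the transcript and, where mapped, by coordinates on the rn4 assembly. Exons, introns and UTRs at these places were not analysed here. For the probes of Pecam1, Ocln, Cdh5, Cldn5 and Vwf, the last 30 of the 60 bases are printed, 5′ to 3′, as the files give them. Capitals mark AATAAA, a hexamer that directs polyadenylation when it lies near the end of a transcript.
Pecam1, offset 3156, chr10:96056219-96056278, minus strand: tattaAATAAAacggatttttactcttcaa
Ocln, offset 4053, chr2:31317108-31317167, minus strand: ttgtatgtgctttatatttttgaAATAAAg
Cdh5, offset 2175, chr19:779665-779724, minus strand: cccctacgatacactgcacatctacggcta
Cldn5, offset 714, minus strand of unplaced sequence of chromosome 11: agcaccaaggcgaaccacggccaacggcga
Vwf, offset 455, chr4:161738186-161738245, plus strand: tatggaaggaaagtggtatttgttggcaaa
Vwf, offset 8366, chr4:161854554-161854613, plus strand: tgccatgcaatgcagatgttctccccgtaa
Vwf, offset 8514, chr4:161854702-161854759, plus strand: cccacAATAAAggccaagttctcctcttaa
The hexamer was found in 3 of the 12 member probes (Pecam1, Ocln and the Vwf probe at 8514) and in 9.22% of the 23678 tested probes. Its reverse complement TTTATT occurred in 1 member probe and in 724 tested probes. A match describes these letters only and is no evidence that a transcript ends there.

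Arrays that stood apart are named first because several results rest on them. A transcript with a pair of probes 300 or more bases apart gives a 5′ minus 3′ difference in log2 signal, set against its mean over all rats. The median over 1885 such transcripts was 0.22 in control replicate 2 and 0.09 to 0.17 in the stressed rats, and it was -0.30, -0.30 and -0.18 in control replicates 1, 3 and 4. Limma gave control replicate 2 a weight of 0.107, while the other arrays had weights between 0.784 and 2.71. Among the Hox genes, which mark position along the body axis, Hoxc11 was at -5.09 in stress replicate 3 and at -2.59 in stress replicate 2, against -0.55 to 0.03 on the other 6 arrays. Hoxa10 was likewise at -3.46 and -0.33 in these stressed rats and between 0.28 and 0.52 elsewhere. One slide held every array, row 1 the stressed rats and row 2 the controls, so an effect of the row cannot be told apart from stress.

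Pecam1 was the gene among the 10 that differed between the groups. It encodes PECAM-1 (CD31), an adhesion molecule at the contacts between endothelial cells that platelets and some leukocytes also carry. Its signal was -0.73, -0.72, -0.55 and -0.88 in the stressed rats and -0.96, -1.16, -1.17 and -1.21 in the controls. All stressed rats lay above all controls, and control replicate 2 lay with the other controls. Pecam1 rose by 0.40 (standard error 0.095, 95% interval 0.18 to 0.62), a fold of 1.32, with an adjusted p of 0.0927 from limma over all tested probes. The exact permutation test gave p = 0.0286, the smallest that 4 against 4 rats allow. The call is close to the threshold of FDR 0.1 and was made in 9 of 21 fits. With control replicate 2 left out the difference was 0.39 and the adjusted p 0.024, in a fit that called 40.6% of all gene names. Leaving out another single rat gave adjusted p values between 0.132 and 0.266, while the difference stayed between 0.35 and 0.46. Without stress replicates 2 and 3, the rats with low Hoxc11, the difference was 0.32 (adjusted p = 0.518). With a normexp background correction it was 0.37 (adjusted p = 0.176).

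In all, 1 of the 10 genes was called at FDR below 0.1, where 3.65% of the 20686 tested gene names were called by their brightest probe and 3.74% of all probes. Non-overlapping groups were seen at 12.1% of all probes. At an unadjusted p below 0.05, Pecam1 and Vwf passed, where 19.9% of all gene names did. The difference was above 0 for 9 of the 10 genes, against 57.3% of all gene names, with a median of 0.16 against 0.06 for all tested probes. These signs depended on the scaling. After quantile normalization 6 of the 10 were above 0, and 4 were when the model held the 5′ minus 3′ median of each array as a covariate.

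**Figure D1:**
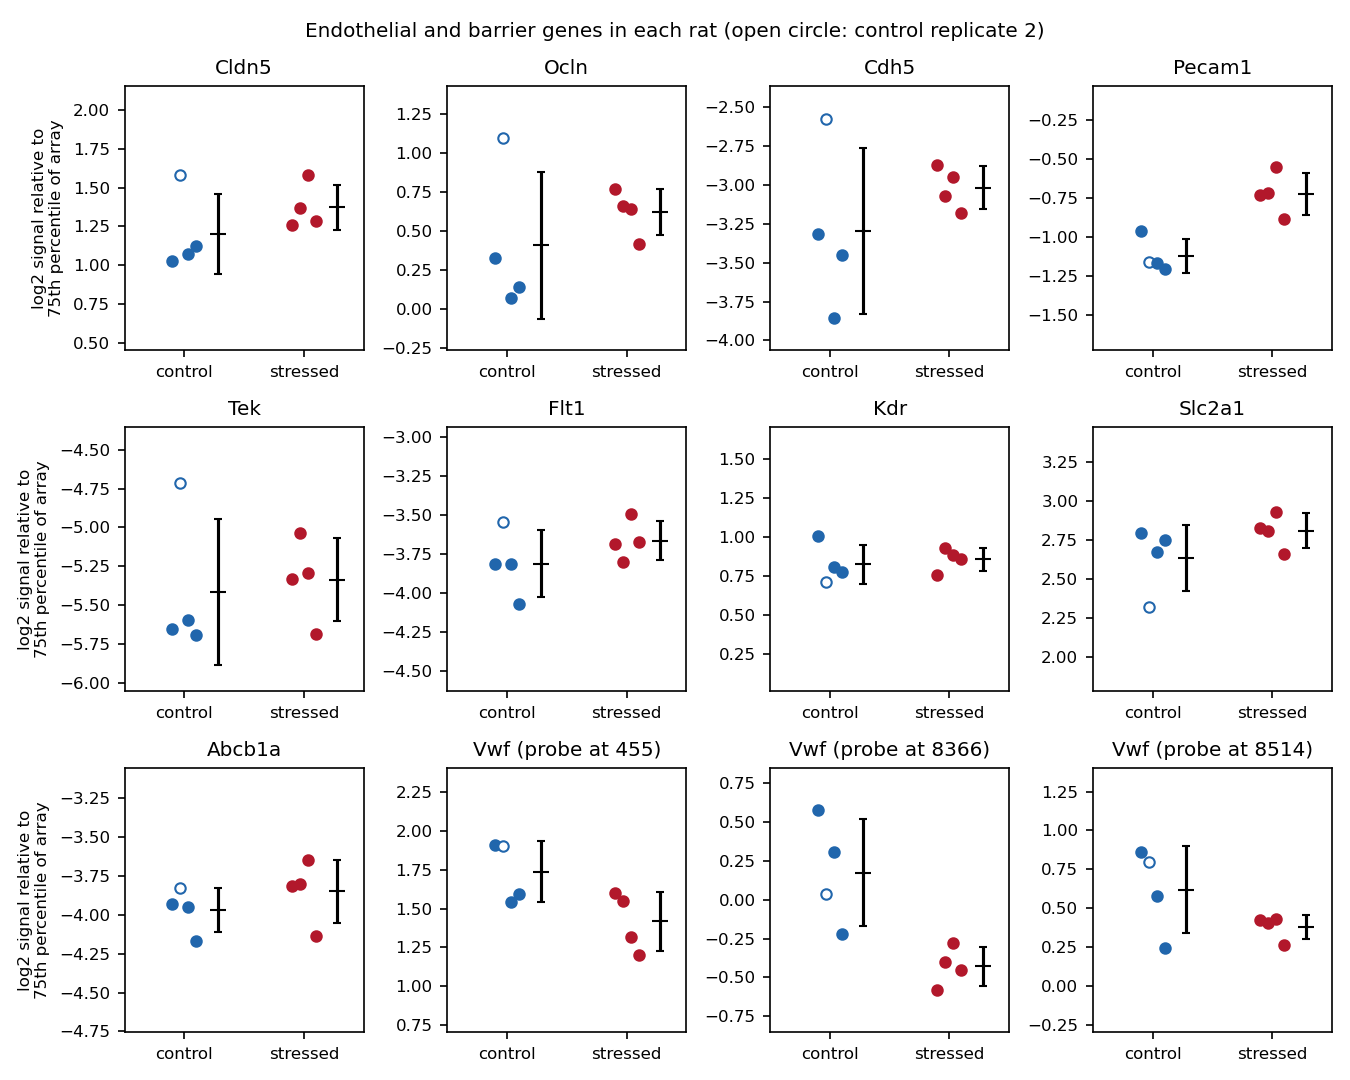
Scaled log2 signal (y axis, 1.7 units in every panel) for the 12 probes in each control (blue) and stressed (red) rat, with the mean and SD of each group in black and control replicate 2 as an open circle. The groups are apart for Pecam1 and for the Vwf probe at 8366. Control replicate 2 lies above the other controls for Cldn5, Ocln, Cdh5, Tek, Flt1 and, by less, Abcb1a.

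The tight junction genes and VE-cadherin did not pass the test, and their differences depended on single rats, control replicate 2 above all. Cldn5, the main claudin of this endothelium, was at 1.26, 1.37, 1.58 and 1.28 in the stressed rats and at 1.02, 1.58, 1.07 and 1.12 in the controls. The stressed rats thus lay above 3 of the controls, and control replicate 2 matched the highest of them. The difference was 0.17 (95% interval -0.15 to 0.50, adjusted p = 0.498 from limma).

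Ocln, which encodes occludin, was at 0.77, 0.66, 0.64 and 0.42 in the stressed rats and at 0.32, 1.10, 0.07 and 0.14 in the controls. Control replicate 2 was the highest rat of all, and the other controls were the lowest. The difference was 0.22 (95% interval -0.30 to 0.73, adjusted p = 0.591). Cdh5, which encodes VE-cadherin of the adherens junction, showed the same order, with -2.87, -3.07, -2.95 and -3.18 in the stressed rats and -3.32, -2.57, -3.85 and -3.45 in the controls. Its difference was 0.28 (95% interval -0.29 to 0.85, adjusted p = 0.531).

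Without control replicate 2 all 3 passed FDR 0.1, with differences of 0.30 for Cldn5 (adjusted p = 0.041), 0.45 for Ocln (0.018) and 0.52 for Cdh5 (0.031). With Pecam1 that made 4 of 10 genes called, where 40.6% of all gene names were called in the same fit, so that this count lay at the background. Other single rats moved the values toward 0. Without control replicate 3 the difference was 0.096 for Cdh5 and 0.10 for Ocln, without control replicate 4 it was 0.13 for Ocln, and for Cldn5 it was 0.10 without stress replicate 3 and 0.11 without control replicate 1. Array weights, which lower the influence of control replicate 2, called these 4 genes and Tek, against 49% of all gene names. Under the 5′ minus 3′ covariate the signs turned, to -0.13 for Cldn5, -0.30 for Ocln and -0.28 for Cdh5. No member was then called, where 9.87% of gene names were. An unadjusted p below 0.05 was found for 4 members and for 5520 of the 23678 tested probes. The covariate was 0.09 to 0.17 in the stressed rats, 0.22 in control replicate 2 and -0.30 to -0.18 in the other controls. It thus separates the groups but for control replicate 2, and the fit with it rests largely on that rat. The part of the 5′ minus 3′ difference in these values was not tested. Pecam1 kept its size with the covariate, at 0.43 (adjusted p = 0.103).

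**Figure D2:**
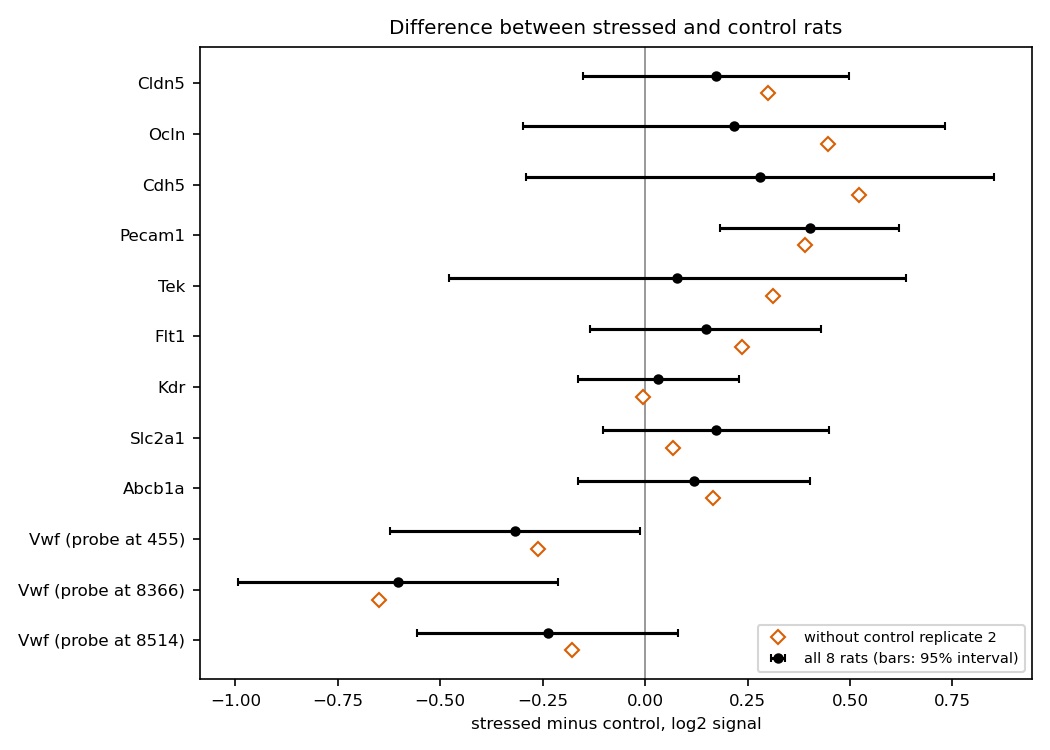
Stressed minus control difference in log2 signal (x axis) of each probe, with its 95% interval over all 8 rats (black) and the value without control replicate 2 (open diamonds). The differences of Ocln, Cdh5 and Tek move by over 0.2 when that rat is left out, whereas Pecam1 stays near 0.40.

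None of the receptors passed the test. Tek encodes TIE2, the receptor of angiopoietins that holds vessels in a quiet, tight state. Its signal was -5.33, -5.03, -5.29 and -5.68 in the stressed rats and -5.66, -4.72, -5.59 and -5.69 in the controls, so the highest value belonged to control replicate 2 and the groups overlapped. The difference was 0.08 (95% interval -0.48 to 0.64, adjusted p = 0.866 from limma), and its sign turned in 6 of 21 fits. The Tek probe was dim, with a processed signal of 38 to 70 before scaling.

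Flt1 encodes VEGF receptor 1, which binds VEGF tightly and limits how much reaches the other receptor. It was at -3.69, -3.80, -3.50 and -3.67 in the stressed rats and at -3.82, -3.55, -3.82 and -4.07 in the controls. The difference was 0.15 (95% interval -0.13 to 0.43, adjusted p = 0.504), with the stressed rats above every control but control replicate 2. It was 0.24 without control replicate 2, 0.061 without control replicate 4 and 0.092 without stress replicate 3. Kdr encodes VEGF receptor 2, the main signalling receptor of VEGF in endothelium. It was at 0.76, 0.93, 0.88 and 0.86 in the stressed rats and at 1.005, 0.71, 0.81 and 0.78 in the controls. The rats of both groups mixed, and the difference was 0.03 (adjusted p = 0.844). Its 95% interval, -0.16 to 0.23, was the narrowest of the 12 probes.

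The transporters did not pass the test either. Slc2a1 encodes GLUT1, which carries glucose across the barrier and is also made by astrocytes. It was at 2.83, 2.81, 2.93 and 2.66 in the stressed rats and at 2.79, 2.32, 2.67 and 2.75 in the controls. Control replicate 2 was the lowest rat here, opposite to its place for the junction genes. The difference was 0.17 (95% interval -0.10 to 0.45, adjusted p = 0.430), and it was 0.07 without that rat. Abcb1a encodes a P-glycoprotein that pumps drugs back into the blood. It was at -3.81, -3.80, -3.65 and -4.14 in the stressed rats and at -3.93, -3.83, -3.95 and -4.17 in the controls. Stress replicate 4 and control replicate 4 were the lowest of their groups, and the difference was 0.12 (95% interval -0.16 to 0.40, adjusted p = 0.592). It was 0.21 without stress replicate 4, 0.051 without stress replicate 3 and 0.053 without control replicate 4. Control replicate 2 was the highest control, and without it the difference was 0.17.

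Vwf was the member with lower values in the stressed rats. It encodes von Willebrand factor, a clotting protein that endothelial cells store and release and that platelets also carry. The brightest probe, at offset 455, gave 1.60, 1.55, 1.32 and 1.20 in the stressed rats and 1.91, 1.90, 1.54 and 1.59 in the controls. The groups overlapped by little, with a difference of -0.32 (95% interval -0.62 to -0.01, adjusted p = 0.236 from limma). The probe at 8366 gave -0.58, -0.40, -0.28 and -0.45 in the stressed rats and 0.58, 0.03, 0.31 and -0.22 in the controls. Here all stressed rats lay below all controls, with a difference of -0.60 (95% interval -0.99 to -0.21, adjusted p = 0.130), a fold of 0.658. The probe at 8514 gave 0.42, 0.41, 0.43 and 0.27 against 0.86, 0.80, 0.58 and 0.24, a difference of -0.24 (95% interval -0.56 to 0.08, adjusted p = 0.353), which was -0.16 without control replicate 1 and -0.36 without control replicate 4.

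No Vwf probe passed FDR 0.1 in the main fit, and the 3 probes lay on the same side. The probe at 8366 passed in other fits, with an adjusted p of 0.035 without control replicate 2, 0.015 with array weights, 0.0896 with a variance trend and 0.095 without the filter on dim probes. Without control replicate 2 and with array weights, 40.6% and 49% of all gene names were called. The variance trend called 1295 probes and the fit without the filter 3010, against 885 in the main fit. The probe at 455 passed in none of the fits, where its value lay between -0.44 and -0.17, the latter with array weights. Unlike the junction genes, Vwf did not separate control replicate 2 from the other controls, since that rat was at 1.90 beside 1.91 in control replicate 1.

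**Figure D3:**
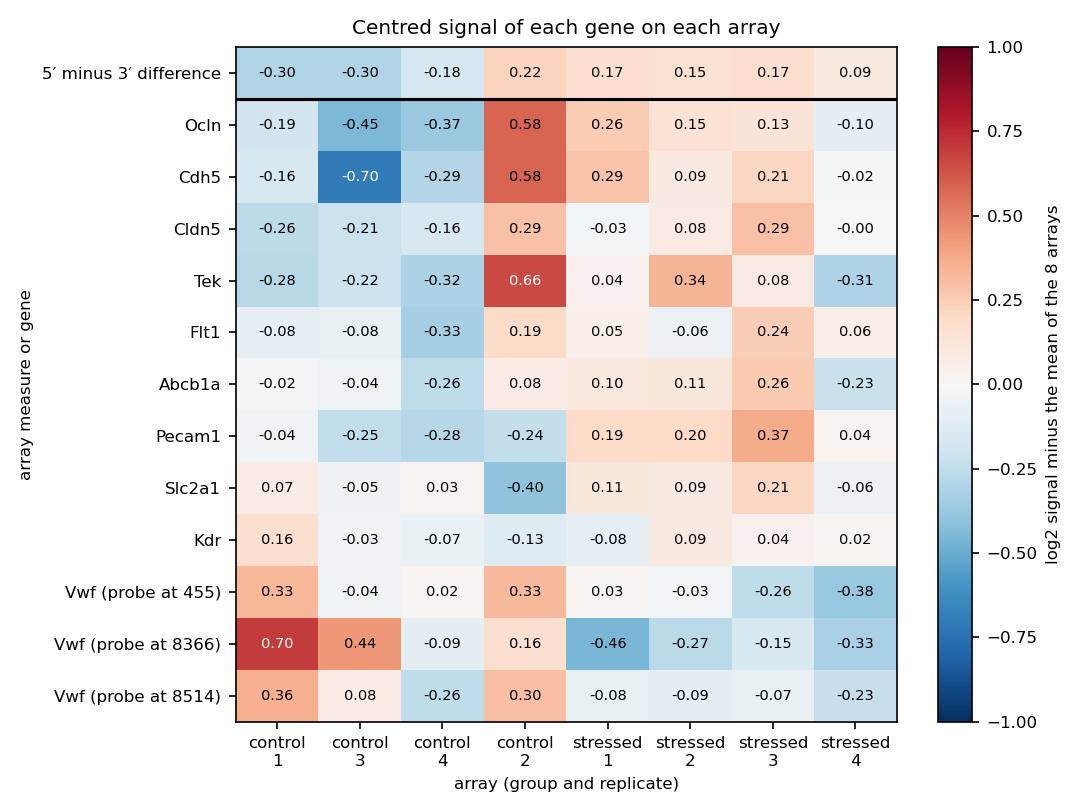
Log2 signal of each probe on each array minus its mean over the 8 arrays (rows below the line; colour from -1, blue, to 1, red), under the 5′ minus 3′ difference of the array (top row). Ocln, Cdh5, Cldn5 and Tek are low in control replicates 1, 3 and 4 and high in control replicate 2, as the top row is, whereas Pecam1 is low in all 4 controls and Vwf tends to be low in the stressed rats.

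Over the 8 arrays, the probes of other genes with the closest pattern were Glra1 and Carm1 for Cdh5 (Pearson r = 0.993 and 0.986), Sema3d and Slc45a3 for Cldn5 (0.991 and 0.990) and Rai12 and Mmp15 for Ocln (both 0.998). For Pecam1 they were Dpysl2 (0.979) and Tcrb (0.972), for Kdr Ptgds (0.951) and Piwil2 (0.930), and for Flt1 Atp5e (0.967) and Znf641 (0.965). Tek was closest to RGD1565222 (0.981) and Ndufb2 (0.973). For Slc2a1, Abcb1a and the Vwf probe at 455 the closest probe had no gene symbol, with r of 0.977, 0.986 and 0.951. These are the best of 23678 probes over 8 arrays that share 1 slide, and they describe these arrays only.

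The other vascular genes were taken from 8 lists, which hold 228 genes apart from the 10 members. Of these, 204 had a probe and 195 were tested. The brightest probe was called at FDR below 0.1 for 13 of the 195 genes (6.67%), 9 higher and 4 lower in stressed rats. Over all gene names 3.65% were called, 2.62% higher and 1.03% lower. The differences were above 0 for 96 genes and below 0 for 99, where 57.3% of all gene names were above 0. The median was -0.01 against 0.06 for all tested probes. The mean level of each list was compared between the groups by an exact permutation test, and none passed (smallest p = 0.0571, for the junction partners and the transcription factors, adjusted p = 0.343). Leaving out control replicate 2 called 80 of these 195 genes, where 40.6% of all gene names were called in the same fit. Leaving out any other single rat called 0 or 1, in fits that called 0 to 72 of the 23678 tested probes. The normexp correction called 4, in a fit that called 215 of these probes.

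Among 24 tested partners of the junctions, 3 were called higher and none lower at FDR below 0.1 (2.62% and 1.03% of all gene names). The differences of 13 were above 0 and of 11 below 0, and at an unadjusted p below 0.05 5 were higher and 1 lower. Of all gene names, 57.3% were above 0 and 19.9% passed that p in either direction. Ctnna1 (alpha-catenin) differed by 0.60 (adjusted p = 0.0703 from limma), Jam3 (a junctional adhesion molecule) by 0.84 (0.0792) and Ctnnb1 (beta-catenin, which binds cadherins and carries Wnt signals) by 2.61 (0.0865). Neither catenin is particular to endothelium. Ctnnb1 was at -1.10, -0.90, -0.91 and -1.10 in the stressed rats and at -4.70, -1.65, -4.16 and -3.95 in the controls. Control replicate 2 lay near the stressed rats, and with the 5′ minus 3′ covariate the difference was 1.11 (adjusted p = 0.045).

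Among 30 tested transporters of the barrier, 3 were called higher and none lower, beside the same 2.62% and 1.03%, with a median difference of 0.00. The differences of 15 were above 0 and of 15 below 0, and at an unadjusted p below 0.05 6 were higher and 2 lower. Of all gene names, 57.3% were above 0 and 19.9% passed that p in either direction. Slc16a1, a carrier of lactate and ketone bodies, was at -0.63, -0.52, -0.26 and -0.41 in the stressed rats and at -1.55, -0.98, -1.34 and -1.27 in the controls. It rose by 0.83 (standard error 0.14, adjusted p = 0.0506). Slco1a5, an organic anion carrier, rose by 0.60 (adjusted p = 0.0417) and was among the 0.477% of probes that passed FDR 0.05. Its probe was dim, and with a normexp background correction the difference was 0.27 (adjusted p = 0.522). Slc6a6, the taurine carrier, rose by 0.44 (adjusted p = 0.0781) and by 0.57 (0.046) with the covariate.

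In the VEGF, angiopoietin and Notch list, 1 of 19 tested genes was called, where 3.65% of all gene names were. Plxnd1, a semaphorin receptor of endothelium, differed by -0.45 (adjusted p = 0.0919), at -1.94, -1.95, -1.83 and -2.06 in the stressed rats against -1.28, -1.65, -1.43 and -1.64. Of 51 other endothelial genes, 3 were called lower and 1 higher at FDR below 0.1, where 1.03% and 2.62% of all gene names were. The differences of 32 were below 0 and of 19 above 0, with 7 lower and 5 higher at an unadjusted p below 0.05. Of all gene names, 57.3% were above 0 and 19.9% passed that p in either direction. Ushbp1 differed by -0.39 (adjusted p = 0.0544), Rasip1, which acts in the opening of the vessel lumen, by -0.29 (0.0870) and Acvrl1, a receptor of bone morphogenetic proteins in endothelium, by -0.39 (0.0934). Rasip1 was at -0.82, -0.83, -0.75 and -0.91 in the stressed rats against -0.55, -0.47, -0.56 and -0.58. Edn1, which encodes the vasoconstrictor endothelin 1, rose by 0.56 (adjusted p = 0.0622). It too was dim, and its difference was 0.25 (adjusted p = 0.706) with the normexp correction.

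Among 13 genes of Wnt signalling and the barrier, Tspan12 (a tetraspanin of the Norrin receptor) was called, at -0.87, -0.85, -0.88 and -0.80 in the stressed rats against -1.45, -1.30, -1.35 and -1.24. It rose by 0.48 (standard error 0.070, adjusted p = 0.0431) and passed FDR 0.05, and it differed by 0.45 (adjusted p = 0.047) with the covariate. Among 21 mural cell genes, Rgs5 (a pericyte marker) rose by 0.46 (adjusted p = 0.0816), while the median of the list was -0.13. The Wnt and mural lists each had 1 call, where 3.65% of all gene names were called. No gene was called among 26 endothelial transcription factors, where Lyl1 had the smallest p (-0.25, adjusted p = 0.196), among 12 basement membrane genes, where Lama5 had it (-0.40, 0.12), or among 10 astrocyte endfoot genes, where Gja1 had it (0.30, 0.12).

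**Figure D4:**
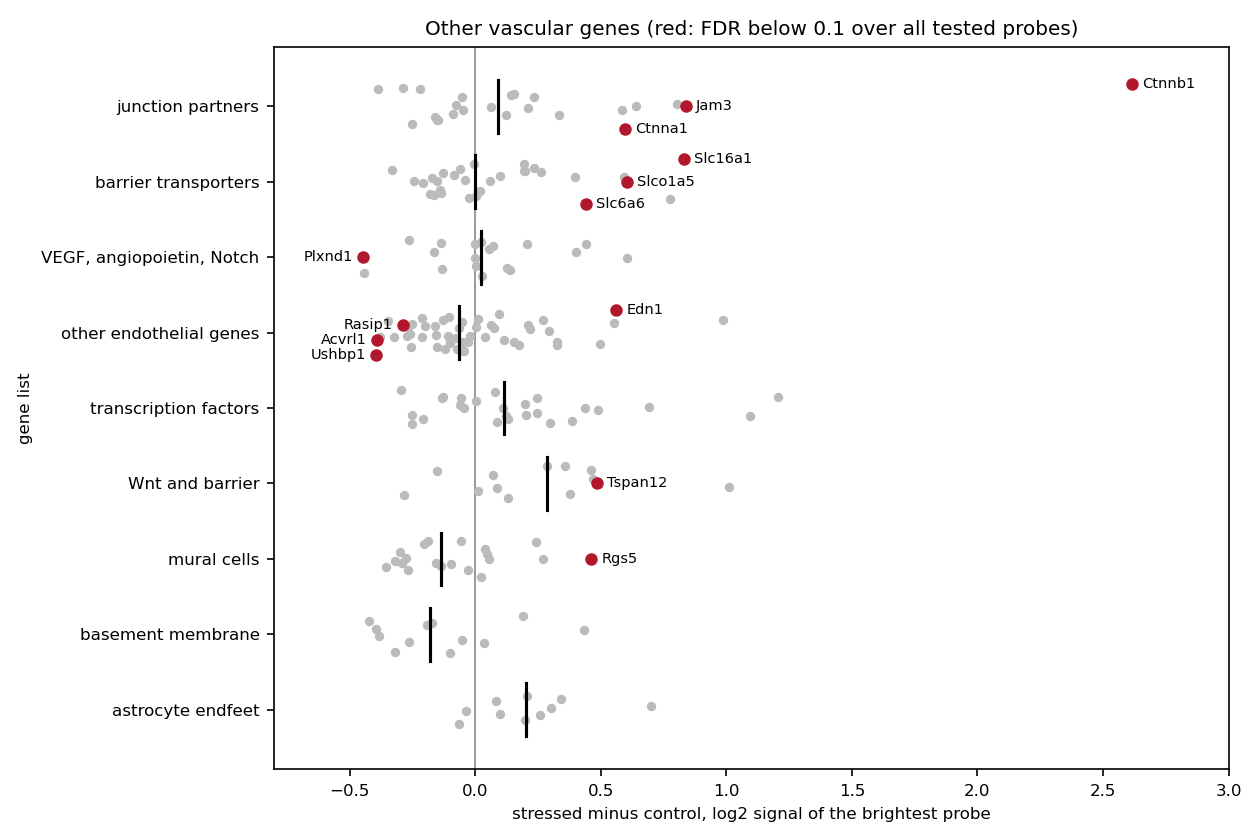
Stressed minus control difference in log2 signal (x axis) of the brightest probe of each tested gene in 9 lists (rows; vertical position within a row spreads the points), with genes called at FDR below 0.1 in red and the median of each list as a black bar. The called genes are 9 higher and 4 lower, and Ctnnb1 lies farthest to the right at 2.61.

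Probes of the same vascular transcript often differed. In 36 transcripts of these lists with such a pair of probes, the stressed minus control difference was greater at the 5′ probe in 31 (86.1%), against 80.3% of the 1885 such transcripts on the array. The median difference was 0.25 at the 5′ probes and -0.11 at the 3′ probes of the vascular transcripts, beside 0.27 and -0.02 over all 1885. Vegfa, the ligand of Flt1 and Kdr, differed by 0.80 at its 5′ probe and by 0.00 at its 3′ probe. Tfrc, the transferrin receptor, gave 0.51 and -0.33. Tnfrsf21 was called at its 5′ probe, with 0.96 (adjusted p = 0.0865), but its brightest probe gave -0.15. The values of the 9 members with 1 probe therefore hold for that stretch of the transcript only.

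**Figure D5:**
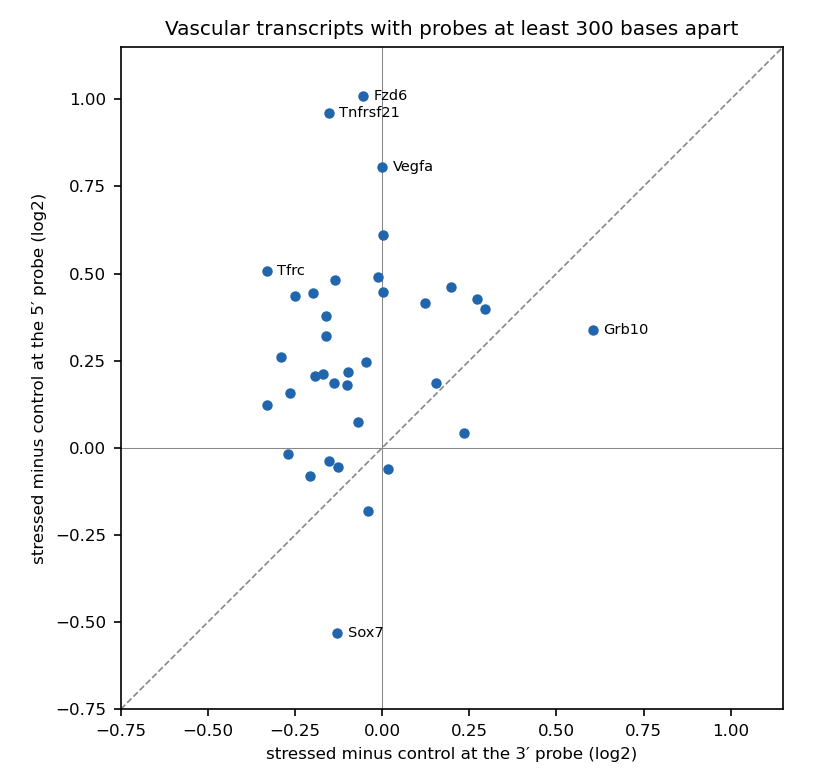
Stressed minus control difference in log2 signal at the 3′ probe (x axis) and at the 5′ probe (y axis) of 36 vascular transcripts; the dashed line marks equal values. Of the points, 31 lie above the line, with Tnfrsf21, Fzd6 and Tfrc farthest above it.

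Markers of the tissue and of other cells were read in the same way. All 14 spinal cord neuron genes with a probe, all 12 oligodendrocyte genes and all 10 endfoot genes were above background on all arrays, as were the 4 Hox genes. In bulk tissue fewer endothelial cells and less RNA per cell cannot be told apart. For red blood cells, 8 of 9 genes were above background on all arrays and Hbe1 on none, and no gene was called (smallest p for Alas2, -0.34, adjusted p = 0.412). The mean centred level of this list ran from -0.24 to 0.40 in stressed rats and from -0.20 to 0.25 in controls. For meninges and fibroblasts, all 14 genes were above background, none was called (Slc6a13, -0.38, 0.375), and the level ran from -0.48 to 0.43 and from -0.56 to 0.70. For leukocytes, 8 of 17 genes were above background on all arrays, Cd3e, Cd79b, Cd8a, Itgal, Mrc1 and Ms4a1 on none, and no gene was called (Lcn2, -0.35, 0.152), with a level from -0.26 to 0.32 in stressed rats and from -0.36 to 0.32 in controls.

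The mural list ran from -0.32 to 0.40 in stressed rats and from -0.35 to 0.28 in controls. Stress replicate 3 was the highest stressed rat for every vascular list and for the red blood cell, meninges, leukocyte, endfoot and oligodendrocyte lists. It was the lowest for the neuron and Hox lists. Pecam1 was also highest in this rat among the stressed rats, and without this rat its difference was 0.35 (adjusted p = 0.212 from limma). No Hox gene was called (smallest p for Hoxd9, -0.28, adjusted p = 0.224) and no neuron gene (Nefl, 0.57, 0.12). Of the 12 oligodendrocyte genes Mog was called, where 3.65% of all gene names were. Its difference was 0.90 (adjusted p = 0.0721), at 2.87, 2.86, 2.96 and 2.71 against 1.58, 2.34, 1.68 and 2.22. The mean level of the oligodendrocyte list ran from 0.00 to 0.34 in stressed rats and from -0.33 to 0.14 in controls, with control replicate 2 the highest control. The part of these lists in the differences of the endothelial genes was not tested.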

How the data were processed

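Total RNA of segments L6S1 was isolated with the RNeasy kit from 4 stressed and 4 control rats, and each rat had 1 array. The intensity values that the authors deposited are the processed signal of Agilent Feature Extraction 10.7.3.1, with background subtracted and no scaling between arrays found, and their table of all arrays holds the same signal rounded. The paper names dChip; its normalization and test are not given in the sources used here.

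Here 4259 control spots were left out and outlier spots set to missing. Log2 signals were scaled to each array's 75th percentile and averaged per probe. Probes well above background (at least 0.5 of the spots) on at least 4 arrays were tested, 23678 in all, using lmFit and eBayes of limma 3.58.1 (R 4.3.3, files read by data.table, version 1.17.8). The FDR is the Benjamini-Hochberg adjusted p over all of them. A missing value kept 10 probes out. The 75th percentile signal was 2156 ± 228 (SD, n = 4) in controls and 1871 ± 87.1 in stressed rats (exact permutation test over 70 choices, two-sided, p = 0.114). Between 23005 and 24066 probes per array were above background. As arrays hold no counts, the number of arrays limits the precision. The labels name no litters or days, so p values measure only the spread between these rats. The fit was tested on simulated data. Figures were drawn with matplotlib 3.10.9.

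The brightest probe stands for a gene. Named are all members and, of each other list, up to 6 genes at FDR below 0.1 or, failing that, the gene with the smallest p. Tnfrsf21, Vegfa, Tfrc, Fzd6, Hoxc11 and Hoxa10, and both settings that leave out stress replicates 2 and 3, were chosen after the values were seen. The members and lists were chosen with earlier results of these data known. The other alternatives were normexp correction (offset 50), quantile normalization, the authors' table, other filters, a variance trend, array weights, a replicate block, the 5′ minus 3′ covariate, the mean of all probes of a gene and leaving out each array. The labels name no pairing of rats by replicate number. In both rows of the slide this number was also the column of the array, so the block holds the column too.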

Additional observations from a re-analysis of the deposited data

Results flagged for a closer look

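A sample far from the others of its group was found in 2 of 28 groups of 4 values tested (the 12 member probes and 2 values of the array, in each group), where chance flags about 1 in 20, or 1.4. Tek in control replicate 2 was at -4.72, while the other controls were between -5.69 and -5.59, so that the gap was 0.898 of the range of the group. The Vwf probe at 8514 in stress replicate 4 was at 0.27, while the other stressed rats were between 0.41 and 0.43, a gap of 0.860 of the range. What set either array apart was not tested.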

How the results depend on the processing

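In the main fit, 1 member, 13 genes of the vascular lists, 885 probes (FDR 0.1) and 113 probes (FDR 0.05) were called by limma. In the same order the counts were 0, 4, 215 and 39 with normexp correction and 5, 92, 11983 and 9638 with array weights. They were 0, 0, 0 and 0 with replicate number as a block and 0, 24, 2390 and 663 with the 5′ minus 3′ covariate. Without stress replicates 2 and 3 they were 0, 0, 0 and 0, and without control replicate 2 as well 0, 46, 6643 and 3423. With the block 2 members, and without stress replicates 2 and 3 1 member, passed an unadjusted p below 0.05. Of the 23678 tested probes, 4292 and 2158 did so in these fits. No filter gave 3010 and 13 probes. The FDR 0.05 count was 172 after quantile normalization, 237 with all 8 arrays above background and 353 with a variance trend. With 1 array left out the counts ran from 0 to 4 members, 0 to 80 vascular genes, 0 to 10036 probes and 0 to 7654 probes, and control replicate 2 gave each highest value. By brightest probe, 40.6% of all gene names were called without control replicate 2, 49% with array weights and 9.87% with the covariate. Called probes were 74.0% higher with all rats, 61.3% after quantile normalization, 88.4% with normexp, 85.2% with no filter (median difference of all probes 0.11) and 48.2% with the covariate. Signs turned for Abcb1a (-0.052), Flt1 (-0.024) and Tek (-0.11) after quantile normalization. With the covariate they turned for Cdh5 (-0.28), Cldn5 (-0.13), Flt1 (-0.020), Ocln (-0.30) and Tek (-0.45). Without stress replicates 2 and 3 Abcb1a (-0.0054), Kdr (-0.017) and Tek (-0.093) turned, and without control replicate 2 as well Kdr (-0.055). With 1 array left out Kdr ran from -0.0058 to 0.092 and Tek from -0.022 to 0.31. None of these reversed values was called, and the causes were not tested. Pecam1, Slc2a1 and Vwf kept their direction in all 21 fits. Deviations of rats with the same number correlated at 0.095, 0.12, -0.087 and 0.31, and 1 of 8 rats correlated best with its own number. The signal over background limits dim probes such as those of Edn1 and Slco1a5, whose calls were lost with normexp. Among the members, Tek, Abcb1a, Flt1 and Cdh5 also had dim probes. Their processed signals before scaling were 38 to 70, 111 to 154, 134 to 171 and 160 to 309.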
